A study of Mus musculus with 51 samples.

Results

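The genes described here are 10 surface antigens grouped as mesenchymal stromal surface markers: Nt5e (CD73), Thy1 (CD90), Eng (endoglin, CD105), Pdgfra and Pdgfrb (CD140a and CD140b), Ly6a (Sca-1), Cd44, Mcam (CD146), Cd34 and Thbd (thrombomodulin, CD141). Each gene was followed through the probe set that carries its symbol and no other. Of the 10 members, 9 had such a probe set, 1 each, among the 19938 genes with a probe set of their own. Ly6a was matched to no probe set by symbol or Entrez identifier and is not analysed here.

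The study compared mouse stromal lines that differ in their support of hematopoietic stem and progenitor cells (HSPCs) ex vivo, on Affymetrix mouse gene 1.0 ST arrays, with 51 arrays in 17 groups of 3. From the aorta-gonad-mesonephros region (AGM) of (CBAxC57BL/10)F1 embryos at embryonic day 11 came the supportive lines UG26.1B6, AM14-1C4 and AM30-3F4 and the less-supportive line UG26.3B5. From C57BL/6 fetal liver (FL) at embryonic day 14.5 came the supportive lines AFT024 and 2012 and the non-supportive lines BFC012, BFC and AFT011. From adult bone marrow (BM) came BMC9 (supportive) and BMC10 (less-supportive) on the H2ts6 background, and 14F1-1 (supportive) on BALB/c. The supportive line OP9 came from fetal calvaria of (C57BL/6xC3H)F2-op/op mice, which carry the op mutation. These 13 lines were harvested at confluency, all at 33 °C per the labels except 14F1-1 and replicates 1 and 2 of OP9, which were at 37 °C. The other 12 arrays held AFT024 and BFC012 stroma grown for 4 days alone (AFT024-KLS, BFC012-KLS) or with bone marrow c-Kit+Sca1+Lin- cells (AFT024+KLS, BFC012+KLS), a fraction rich in HSPCs, and then sorted for absence of CD45, the leukocyte antigen. Every source except OP9, labelled a line, is labelled a clone, so a line stands for 1 clone and not for its tissue. Whether the 3 arrays of a group came from separate cultures is not labelled. Their spread, on which the p-values rest, could be technical.

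Stromal cells of mesenchymal origin surround hematopoietic cells in the AGM, fetal liver and bone marrow and present growth factors, matrix and adhesion molecules to them. The antigens described here have different molecular roles. Nt5e makes adenosine from AMP at the cell surface, Thy1 is a glycoprotein held by a GPI anchor, and Eng is a co-receptor for TGF-beta and BMP ligands. Pdgfra and Pdgfrb are receptor tyrosine kinases for platelet-derived growth factors, and Pdgfrb also marks pericytes. Cd44 binds hyaluronan, Mcam is an adhesion molecule of pericytes and endothelium, Cd34 is a sialomucin of progenitor cells, endothelium and some fibroblasts, and Thbd binds thrombin and turns it toward activating protein C.

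The values were log2 signals. Their distributions showed 4 separately normalized sets: the UG26, AFT024, BFC012 and BMC lines (18 arrays), the 14F1-1, 2012, AFT011 and AM lines (15 arrays), OP9 with BFC (6 arrays) and the sorted stroma (12 arrays). Levels were compared only within a set. As a check of the labelled cell type, of 17 mesenchymal genes measured, such as collagens and Prrx1, 15 or 16 lay above the median gene in every group. The collagen Col1a2 was among the exceptions in non-supportive FL lines. It averaged 7.07 in BFC012, against 12.54 in BMC9 of the same set, and 7.37 in AFT011, just below the median gene in both lines. Ptprc, which encodes CD45, lay below the first quartile of genes in all 17 groups. As landmarks, the first quartile and median of all genes were 5.72 and 7.27 in the set of UG26, AFT024, BFC012 and BMC lines, 5.98 and 7.38 in the set of 14F1-1, 2012, AFT011 and AM lines, 4.07 and 5.24 for OP9 and BFC, and 4.63 and 5.85 in sorted stroma.

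Promoter windows from RefSeq (build GRCm38.p6) were used for 6 of the 10 members: Nt5e, Eng, Pdgfra, Cd44, Mcam and Cd34. No window was used for Thy1, Pdgfrb, Ly6a or Thbd, which does not mean that RefSeq lacks one. The 250 bases before the annotated start are printed for Eng and Cd34, whose levels stepped most between lines, and for Nt5e and Mcam, which were highest together in BFC012. The windows are chr2:32646345-32646594 (Eng), chr1:194938571-194938820 (Cd34), chr9:88327359-88327608 (Nt5e) and chr9:44134408-44134657 (Mcam), all on the plus strand. Capitals mark the motifs found on either strand.

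Eng: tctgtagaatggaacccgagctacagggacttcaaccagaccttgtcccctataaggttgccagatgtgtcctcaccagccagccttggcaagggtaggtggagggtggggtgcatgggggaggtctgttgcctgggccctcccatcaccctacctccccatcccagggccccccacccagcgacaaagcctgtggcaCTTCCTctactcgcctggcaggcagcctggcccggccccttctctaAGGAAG

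Cd34: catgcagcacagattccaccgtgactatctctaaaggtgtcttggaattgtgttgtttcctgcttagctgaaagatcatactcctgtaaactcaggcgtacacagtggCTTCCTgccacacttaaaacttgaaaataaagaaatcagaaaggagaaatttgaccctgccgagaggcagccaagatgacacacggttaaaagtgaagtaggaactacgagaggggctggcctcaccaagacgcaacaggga

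Nt5e: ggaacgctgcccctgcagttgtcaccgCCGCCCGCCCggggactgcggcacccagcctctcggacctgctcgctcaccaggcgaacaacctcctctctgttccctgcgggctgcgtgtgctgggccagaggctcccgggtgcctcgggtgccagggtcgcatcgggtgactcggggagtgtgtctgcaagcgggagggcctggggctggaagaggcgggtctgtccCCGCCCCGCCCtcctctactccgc

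Mcam: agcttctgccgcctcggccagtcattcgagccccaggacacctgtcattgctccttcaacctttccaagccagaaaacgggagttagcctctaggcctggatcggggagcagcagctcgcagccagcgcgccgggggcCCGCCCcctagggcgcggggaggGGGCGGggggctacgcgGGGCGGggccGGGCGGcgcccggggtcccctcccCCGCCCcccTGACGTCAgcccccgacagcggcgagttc

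Matches to 7 motifs were sought on both strands. The GC box is GGGCGG in letters. The cAMP response element has the letters TGACGTCA. The TATA box was taken as TATAAA wherever it lay. An ETS core was sought with the letters AGGAAG in any position. The others were the CCAAT box, a GATA motif written AGATAA here, and the E-box, for which the letters CACGTG were used. The Nt5e window held 4 GC boxes, which overlap in pairs, and the Mcam window held 5 together with 1 cAMP response element 29 bases before the start. Of 32851 RefSeq windows of the same length, 32.7% held a GC box and 1.55% the cAMP response element. Eng held 2 ETS cores and Cd34 held 1, a motif present in 29.5% of windows, and neither held a GC box. The Nt5e and Mcam windows had 21 and 25 CpG dinucleotides, against 4 in Eng, 6 in Cd34 and a median of 6 over all windows. These matches describe the letters and say nothing about binding.

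Eng took 1 of 2 levels in most confluent lines. In the set of UG26, AFT024, BFC012 and BMC lines, the arrays of BMC9 read 11.53, 11.38 and 11.47 and those of BMC10 read 7.09, 6.94 and 6.96. BFC012 read 11.09, 9.95 and 10.32, and AFT024 read 7.13, 7.32 and 7.04. Thus the high and low lines of each tissue were apart by more than the whole spread of their arrays, but the supportive line was the high one in BM and the low one in FL. Both UG26 lines were high, at 11.07 ± 0.04 in UG26.1B6 and 11.43 ± 0.12 in UG26.3B5 (SD, n = 3). In the set of 14F1-1, 2012, AFT011 and AM lines, AM30-3F4 stood at 11.31 ± 0.03, and the other 4 lines lay between 7.12 and 7.57. Among those, AM14-1C4 was above 14F1-1 and AFT011 (14F1-1 minus AM14-1C4 was -0.44, adjusted p = 0.0185, and AFT011 minus AM14-1C4 was -0.41, adjusted p = 0.0330), and no other 2 of the 4 differed past the threshold. In arrays of whole cultures, fewer cells carrying a transcript and less transcript per cell cannot be told apart, and this holds for every level given here.

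Eng differed by 4.46 between BMC9 and BMC10 (standard error 0.15, 22.0-fold, adjusted p = 9.03e-22) and by -3.29 between AFT024 and BFC012 (standard error 0.15, 9.77-fold, adjusted p = 1.80e-18), with limma's moderated test and Benjamini-Hochberg adjustment over all genes, threshold 0.05. These are differences of log2 signals, the first line minus the second, and every adjusted p below comes from the same test. In OP9 and BFC the gene was near the median gene, at 5.12 ± 0.14 and 5.46 ± 0.11, and that difference did not pass (adjusted p = 0.0868). For UG26.1B6 minus UG26.3B5 the difference of -0.35 did not pass either (adjusted p = 0.172), but it passed with the replicate number as a block (adjusted p = 0.0248).

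Cd34 was the member with the largest steps. The UG26.1B6 arrays read 5.69, 5.59 and 5.25, all below the first quartile of genes, and UG26.3B5 read 5.74, 5.69 and 5.91. AFT024 read 11.10, 11.01 and 11.11, BFC012 11.50, 11.37 and 11.43, BMC9 10.57, 10.96 and 11.23, and BMC10 10.14, 10.12 and 10.29. So in this set Cd34 was high in all 4 FL and BM lines and low in both AGM lines, and the lowest high line exceeded the highest low line by 4.40 (adjusted p = 1.25e-25). The range of its line means, 5.92, was exceeded by 0.0502% of genes.

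The other set did not repeat that order by tissue. There Cd34 was 11.49 ± 0.08 in AFT011 (FL) and 10.90 ± 0.05 in AM14-1C4 (AGM), but 6.16 ± 0.01 in 14F1-1 (BM), 6.41 ± 0.08 in 2012 (FL) and 6.50 ± 0.12 in AM30-3F4 (AGM). Each of the 3 tissues of origin therefore had lines near 11 and, in AGM, BM and FL alike, a line near or under 6.5, once both sets are read side by side without comparing their scales. The arrays of 2012 (6.50, 6.34 and 6.38) and AFT011 (11.48, 11.41 and 11.57) were apart by -5.08 (33.9-fold, adjusted p = 1.92e-27). OP9 (4.11, 3.95 and 3.88) was likewise far below BFC (6.96, 7.11 and 6.83), by -2.99 (adjusted p = 3.96e-21), and the OP9 mean of 3.98 was under the first quartile of its set.

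**Figure D1:**
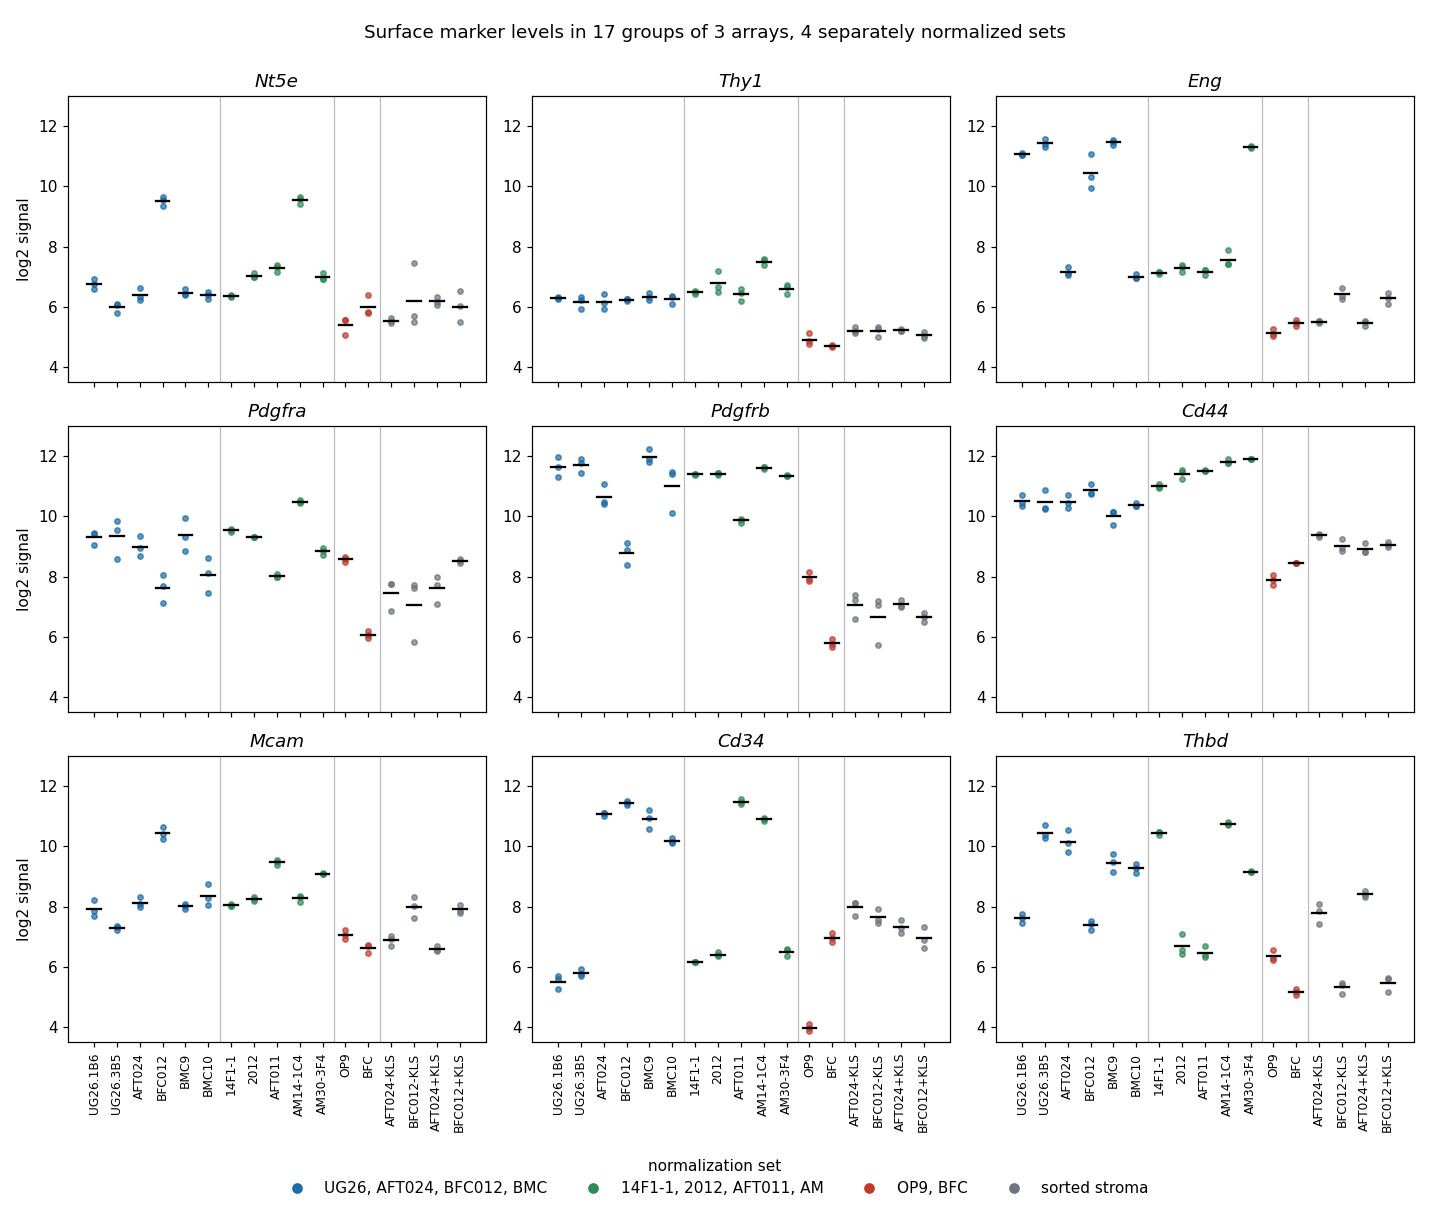
Log2 signal of the 9 measured surface markers in each of 17 groups. Points are arrays, black bars group means, colours the 4 normalization sets, and grey lines part the sets, whose scales are not comparable. Eng and Cd34 arrays lie either between 5.25 and 7.88 or between 9.95 and 11.57 in the 2 largest sets, whereas Thy1 stays between 5.93 and 6.45 in every array of the UG26, AFT024, BFC012 and BMC lines.

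In each of the 3 sets of confluent lines, both PDGF receptors were lowest in the non-supportive fetal liver line. Pdgfrb read 8.89, 8.38 and 9.10 in BFC012, 9.93, 9.79 and 9.89 in AFT011 and 5.92, 5.67 and 5.75 in BFC. The neighbours above them were AFT024 (11.07, 10.40 and 10.49), AM30-3F4 (11.37, 11.34 and 11.35) and OP9 (7.85, 8.14 and 7.92), and in none of the 3 sets did these arrays overlap. AFT024 lay 1.86 above BFC012 (adjusted p = 2.09e-08) and AM30-3F4 lay 1.49 above AFT011 (adjusted p = 2.25e-06). The 4 other lines of the latter set spanned only 11.35 to 11.62 and no neighbours among them differed past the threshold.

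Pdgfra showed a similar order with larger spread. BFC012 read 8.05, 7.13 and 7.68 and AFT024 9.36, 8.94 and 8.69. The 3 AFT011 arrays lay between 7.99 and 8.09 and 2012 read 9.30, 9.33 and 9.30. BFC read 6.07, 6.17 and 5.97 and OP9 read 8.47, 8.58 and 8.65, so each non-supportive FL line was below its partner with no overlap. BMC10 (8.10, 8.60 and 7.47) and BFC012, neighbours at the bottom of their set, did not differ past the threshold (adjusted p = 0.226). The highest Pdgfra mean of its set was AM14-1C4 at 10.49 ± 0.06.

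Over the 13 confluent line means, each taken as its distance from the mean of its normalization set, Pdgfra and Pdgfrb had a Pearson r of 0.85 and a Spearman rho of 0.88. With the points of the 3 non-supportive FL lines left out, r was 0.65 and rho 0.78 over 10 lines. The set means still included those 3 lines, so this does not remove their influence. OP9 and BFC, alone in their set, mirror each other by construction (Pdgfra 1.25 and -1.25, Pdgfrb 1.10 and -1.10). The points share libraries and normalization sets, and the values are descriptions with no test.

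**Figure D2:**
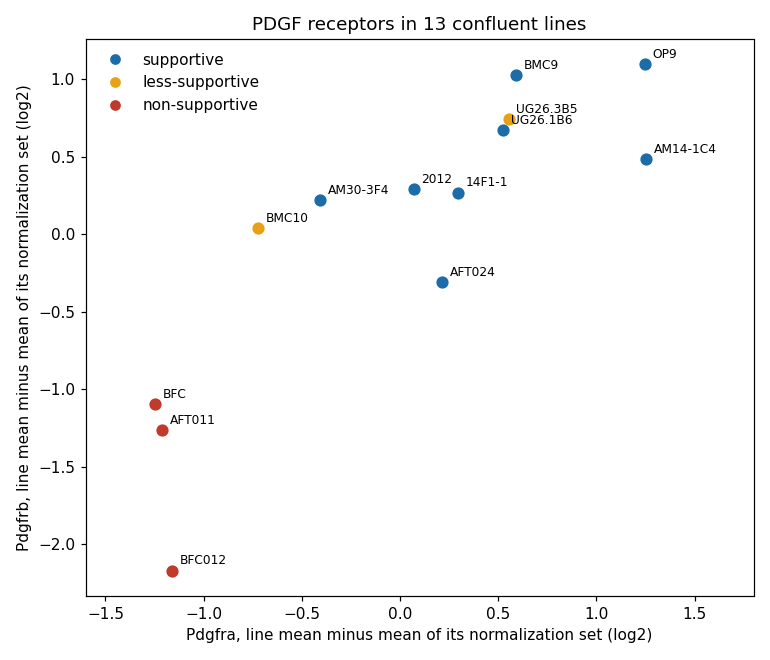
Mean log2 signal of Pdgfrb (vertical) against Pdgfra (horizontal) in 13 confluent lines, each minus the mean of its normalization set; colours give the labelled HSPC support. The 3 non-supportive fetal liver lines lie together at the lower left, with Pdgfra between -1.16 and -1.25 and Pdgfrb between -1.10 and -2.17.

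Other marker lists also differed in the 3 pairs that hold a non-supportive FL line. Of 15 mesothelial and epithelial genes, 7 were lower in AFT024 than in BFC012, 8 lower in 2012 than in AFT011 and 6 lower in OP9 than in BFC, with 2, 3 and 0 higher. In either direction, 28.5%, 27.6% and 34.4% of all genes passed in these pairs. The uroplakin Upk1b differed by -5.19, -5.81 and -3.70 in the 3 pairs and the transcription factor Wt1 by -2.21, -3.16 and -0.88, all past the threshold. The summed signal of these 15 genes, as log2, was 13.2 to 13.3 over the arrays of BFC012 and 11.6 to 12.0 in AFT024. It was 13.2 to 13.3 in AFT011 against 11.1 to 11.2 in 2012. Between BMC9 and BMC10, where both receptors passed, 1 gene of the list was higher and 2 lower. In sorted stroma, 0 genes of the list were higher and 7 lower in AFT024 than in BFC012 grown alone, and 1 higher and 4 lower with KLS cells. Neither receptor passed there in the fit of all sorted arrays. Pdgfrb differed by 0.42 alone and 0.43 with KLS cells (standard error 0.33 for each), the direction seen at confluency. Pdgfra differed by 0.39 and -0.91 (standard error 0.45 for each). With only the arrays compared, both receptors passed with KLS cells (adjusted p = 0.0412 for Pdgfrb and 0.0268 for Pdgfra). At this precision, not passing does not show that a receptor was alike in the sorted lines. The mesenchymal genes differed too. Of 17 measured, 10 were higher and 3 lower in AFT024 than in BFC012, and 7 higher and 1 lower in 2012 than in AFT011. OP9 had 14 higher and 2 lower than BFC. BMC9 had 7 higher and 1 lower than BMC10, where 15.5% of all genes passed. In sorted AFT024 against BFC012 it was 7 and 0 alone and 7 and 2 with KLS cells, against 7.32% and 11.6% of all genes. The part of mesothelial cells or of either list in the receptor levels was not tested.

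Thbd also took high and low levels, but in another order of lines. In the first of the large sets, UG26.1B6 read 7.64, 7.75 and 7.44 and BFC012 7.21, 7.43 and 7.53, whereas UG26.3B5 read 10.27, 10.39 and 10.72 and AFT024 9.82, 10.10 and 10.54. The supportive line was thus the low one in the AGM pair and the high one in the FL pair, with no overlap in either. UG26.1B6 minus UG26.3B5 was -2.85 (standard error 0.15, 7.19-fold, adjusted p = 1.28e-15), and AFT024 minus BFC012 was 2.76 (6.77-fold, adjusted p = 3.08e-16). BMC9 (9.46 ± 0.29) and BMC10 (9.27 ± 0.14) were both high and did not differ past the threshold (adjusted p = 0.489). In the other large set, AM14-1C4 (10.76 ± 0.05) and 14F1-1 (10.44 ± 0.06) were highest, AM30-3F4 followed at 9.17 ± 0.01, and the FL lines 2012 (6.70 ± 0.34) and AFT011 (6.47 ± 0.19) were low.

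Nt5e was high in only 1 line of each large set. It read 9.36, 9.66 and 9.55 in BFC012 and 9.58, 9.42 and 9.64 in AM14-1C4. The next lines, UG26.1B6 at 6.76 ± 0.17 and AFT011 at 7.28 ± 0.12, lay 2.77 and 2.27 lower (adjusted p = 4.50e-18 and 8.77e-16). The remaining lines of these sets spanned 5.98 to 6.47 and 6.36 to 7.03. BFC012 is labelled non-supportive and AM14-1C4 supportive, so the 2 lines high in Nt5e differ in that label as in tissue. In OP9 (5.57, 5.56 and 5.05) Nt5e differed by -0.61 from BFC (5.82, 6.38 and 5.80; adjusted p = 0.000365). OP9 replicate 3, the lowest of these arrays, is the one labelled 33 °C.

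Mcam was highest in the non-supportive FL lines of both large sets. BFC012 read 10.63, 10.41 and 10.25, 2.07 above the next line BMC10 (8.29, 8.05 and 8.74; adjusted p = 2.98e-15). AFT011 read 9.47, 9.38 and 9.55, 0.37 above AM30-3F4 (9.12, 9.08 and 9.08; adjusted p = 0.0303). The lines below these spanned 7.29 to 8.14 and 8.04 to 8.29. BFC departed from that pattern, at 6.45, 6.68 and 6.73 against 6.94, 7.04 and 7.22 in OP9, 0.45 higher in OP9 (adjusted p = 0.00522). Of 16 endothelial genes, 1 was higher and 2 lower in AFT024 than in BFC012, and 1 was higher and 3 lower in 2012 than in AFT011, a smaller share than the 28.5% and 27.6% of all genes past the threshold in these pairs. Among those lower was the phosphatase Ptprb (differences of -2.43 and -3.22), whose level in AFT011 was 10.14. The defining endothelial genes Pecam1 and Cdh5 averaged 6.07 and 6.35 in AFT011, and 5.85 and 5.73 in BFC012, below the median gene of either set. The part of the endothelial genes in the Mcam levels was not tested.

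In the 2 large sets, Cd44 and Thy1 varied least. Cd44 was high in every line, from 10.01 to 10.87 in the UG26, AFT024, BFC012 and BMC lines and from 11.00 to 11.90 in the other large set. Thy1 line means spanned 6.15 to 6.33 in the former, a range of 0.18 that 79.3% of genes exceeded, and lay between the first quartile and the median of genes. None of its neighbours there differed past the threshold. AM14-1C4 was the exception in the other set, with 7.54, 7.59 and 7.37, 0.72 above 2012 (7.20, 6.49 and 6.66; adjusted p = 4.56e-05). Over all members, 16 of 45 pairs of neighbouring lines in the order of levels differed past the threshold in the UG26, AFT024, BFC012 and BMC lines, against 8.46% of such pairs over all genes. In the other large set it was 14 of 36, against 15.8%.

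The design pairs a line that supports HSPCs with one that does so less or not at all, within a normalization set. The 2 PDGF receptors passed in the same direction in 4 of 5 pairs, both higher in the supportive line, and Cd44 in 3 of 5, lower in it. Cd34 also passed lower in the supportive line in 3 of 5 pairs, those with a non-supportive FL line (-0.36, -5.08 and -2.99). It passed higher in the supportive line of the BM pair (0.74). How many of all genes passed in 1 direction in as many pairs was not counted. Whether such a recurrence is unusual is therefore not known. In the AGM pair neither receptor passed. For Pdgfra the differences were 1.38 for AFT024 minus BFC012, 1.28 for 2012 minus AFT011, 1.31 for BMC9 minus BMC10 and 2.50 for OP9 minus BFC (adjusted p = 4.05e-05, 0.000138, 0.000193 and 4.14e-10), and for Pdgfrb they were 1.86, 1.55, 0.98 and 2.19 (adjusted p = 2.09e-08, 9.50e-07, 0.00134 and 4.24e-10). In the BM pair Pdgfrb rested in part on 1 array: BMC10 read 11.49, 11.41 and 10.11, and without replicate 3 the difference was 0.54 (adjusted p = 0.0378). With only the 6 arrays of the BM pair in the fit, neither receptor passed there (adjusted p = 0.0595 for Pdgfra and 0.146 for Pdgfrb). With the replicate number as a block in those 6 arrays, both kept their call. The pairing by number was weak in this pair, with a lowest same-number correlation of 0.116 against up to 0.194 between unlike numbers. For UG26.1B6 minus UG26.3B5 the differences were -0.03 and -0.07, with 95% intervals of -0.54 to 0.48 and -0.52 to 0.38. These pairs are single clones of different tissues and strains, so support cannot be told apart from what else differs between the clones.

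Counted per pair, 8 of 9 members passed between AFT024 and BFC012, where 28.5% of all genes did, and 7 of 9 between OP9 and BFC, where 34.4% did. Between 2012 and AFT011 it was 5 of 9 against 27.6%, between BMC9 and BMC10 5 of 9 against 15.5%, and between UG26.1B6 and UG26.3B5 3 of 9 against 8.56%. The median difference of the 9 members was -0.36, 0.21, 0.12, 0.19 and -0.03 in these pairs, beside -0.02, 0.01, 0.07, 0.03 and 0.03 over all genes. The antigens did not move as 1 block: in the AFT024 and BFC012 pair 3 were higher in AFT024 (Pdgfra, Pdgfrb and Thbd), as 15.6% of genes were, and 5 lower (Nt5e, Eng, Cd44, Mcam and Cd34), as 12.9% were.

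In the AGM pair the members that passed were Nt5e (0.77, adjusted p = 0.000106), Mcam (0.64, adjusted p = 0.000674) and Thbd, with the first 2 higher in UG26.1B6. In the BM pair Cd34 was 0.74 higher in BMC9 (adjusted p = 6.21e-06) and Cd44 differed by -0.37 (adjusted p = 0.0437; with the replicate number as a block 0.0690). Cd44 also passed at -0.38 for AFT024 minus BFC012 (adjusted p = 0.0205) and at -0.57 for OP9 minus BFC (adjusted p = 0.000514). The FL difference in Cd44 lost its call without AFT024 replicate 1 or 2 or BFC012 replicate 2 (adjusted p = 0.149, 0.0597 and 0.148). The BM difference lost it without BMC9 replicate 1 or any 1 of the 3 BMC10 arrays (adjusted p = 0.0695 to 0.324). Cd34 differed by -0.36 between AFT024 and BFC012 (adjusted p = 0.0115), and by -0.33 without BFC012 replicate 1 (adjusted p = 0.0502).

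Thy1 passed once, at 0.36 for 2012 minus AFT011 (adjusted p = 0.0429), although the arrays overlapped (7.20, 6.49 and 6.66 against 6.47, 6.60 and 6.20). Without 2012 replicate 1 the difference was 0.15 (adjusted p = 0.515), without AFT011 replicate 3 it was 0.25 (adjusted p = 0.275), and without AFT011 replicate 1 the adjusted p was 0.0697. Mcam differed by -1.23 for 2012 minus AFT011 (adjusted p = 1.91e-09). Thbd was 1.20 higher in OP9 than in BFC (adjusted p = 9.60e-08).

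**Figure D3:**
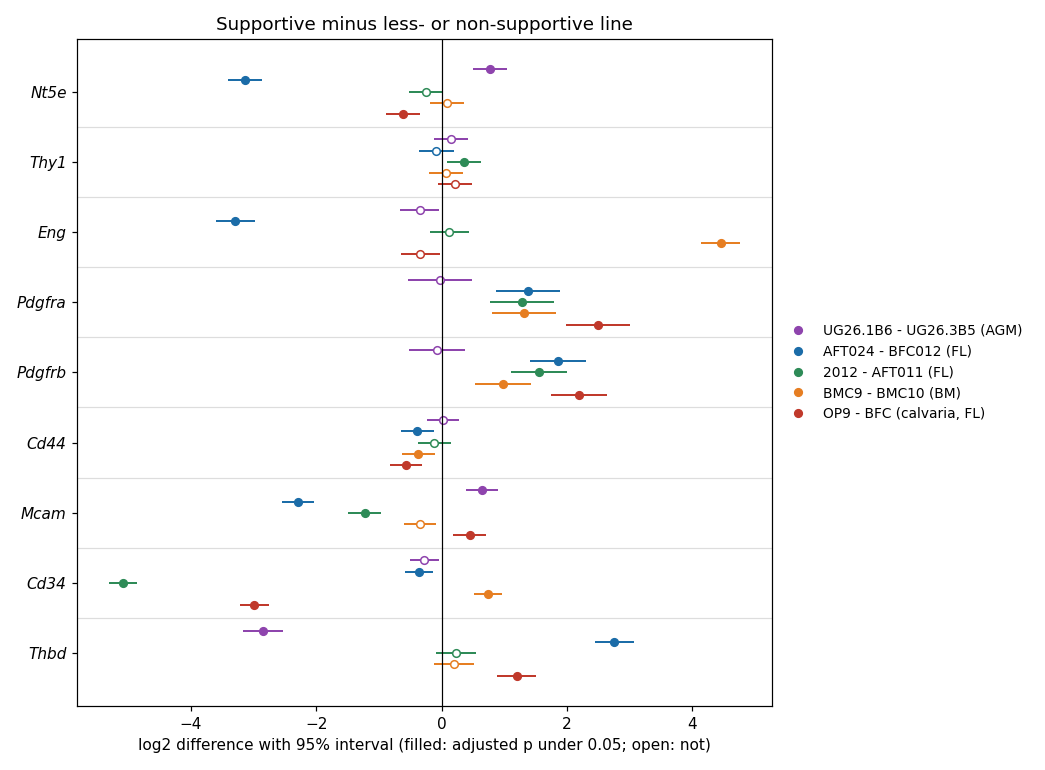
Differences in log2 signal with 95% intervals for 9 surface markers in 5 pairs, the supportive line minus the less- or non-supportive line; filled points have an adjusted p under 0.05. Pdgfra and Pdgfrb lie to the right of 0 in 4 of 5 pairs, while Eng runs from -3.29 to 4.46 and Cd34 from -5.08 to 0.74.

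Whether the pairs differ from each other was tested as a difference of differences inside the set that holds the AGM, FL and BM pairs. Between the FL and BM pairs 6 of 9 members passed, against 25.5% of genes, with Eng at -7.75 (95% interval -8.19 to -7.31, adjusted p = 2.48e-24). Between the AGM and FL pairs 6 of 9 passed, against 24% of genes, led by Thbd at -5.61 and Nt5e at 3.91 (adjusted p = 3.59e-20 and 1.25e-17). Between the AGM and BM pairs 7 of 9 passed, against 12.6% of genes. Pdgfra did not pass between the FL and BM pairs (0.06, 95% interval -0.66 to 0.78).

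AFT024 and BFC012 were measured in 3 cultures, and Thbd, Eng and Mcam passed in all of them. In sorted stroma grown alone, Thbd read 8.08, 7.43 and 7.87 in AFT024 and 5.46, 5.40 and 5.10 in BFC012, a difference of 2.47 (adjusted p = 1.99e-05). With KLS cells it read 8.31, 8.53 and 8.38 against 5.59, 5.16 and 5.64, a difference of 2.94 (adjusted p = 4.21e-06). These stand beside 2.76 in the confluent cultures, which were separate arrays normalized separately. For Eng, AFT024 minus BFC012 was -0.91 alone and -0.83 with KLS cells (adjusted p = 0.000802 and 0.000798), beside -3.29 at confluency. Eng arrays were near the median gene in sorted stroma, from 6.11 to 6.61 in BFC012 and 5.36 to 5.54 in AFT024. For Mcam it was -1.11 and -1.32 (adjusted p = 0.00238 and 0.000500), beside -2.29 at confluency.

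The other members that differed between these lines at confluency did not pass in the fit of all sorted arrays. In all, 3 of 9 members passed in stroma grown alone, against 7.32% of genes, and 3 of 9 with KLS cells, against 11.6%. Nt5e, at -3.14 in confluent cultures, differed by -0.67 alone and 0.18 with KLS cells (adjusted p = 0.412 and 0.850; 95% intervals -1.61 to 0.26 and -0.75 to 1.11). Pdgfrb differed by 0.42 and 0.43 and Pdgfra by 0.39 and -0.91, with adjusted p from 0.245 to 0.690. The call of Pdgfra with KLS cells depends on the fit: its arrays did not overlap, and with only the 6 arrays compared it passed (adjusted p = 0.0268; with the block 0.0233), in the direction opposite to confluency. Pdgfrb with KLS cells also passed with only those arrays (adjusted p = 0.0412). Differences between cultures were not tested, since the sorted and confluent arrays were normalized apart.

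1 library set the spread of several members here. Replicate 1 of BFC012 grown alone read 7.46 for Nt5e where the other replicates read 5.67 and 5.49, 5.81 for Pdgfra where they read 7.63 and 7.71, and 5.71 for Pdgfrb where they read 7.20 and 7.05. High Nt5e with low Pdgfra and Pdgfrb is also the order of BFC012 against AFT024 at confluency, but the other members were mixed. Cd34 (7.92) and Cd44 (9.25) were highest of the group in that library, as in BFC012 at confluency. Mcam (7.61) and Eng (6.25) were lowest of the group and Thbd (5.46) highest, opposite to the order at confluency. What set that library apart was not tested. Without that library Nt5e differed by -0.05 (adjusted p = 0.927), Pdgfra by -0.23 and Pdgfrb by -0.06. Thbd (2.54), Eng (-0.98) and Mcam (-1.30) still passed, and Cd44 came to pass at 0.47 (adjusted p = 0.0202). This direction of Cd44 is opposite to that at confluency (-0.38). With all sorted arrays Cd44 differed by 0.35 alone (adjusted p = 0.100, no overlap of arrays) and -0.15 with KLS cells (adjusted p = 0.480). The replicate numbers were taken to pair the arrays grown alone, since same-number arrays correlated in their deviations from the group mean (0.466 to 0.671). But replicates 2 and 3 correlated as much across numbers (0.501 and 0.487), so mainly replicate 1 stood apart. AFT024 replicate 1 was also the lowest of its group for Pdgfra (6.84 against 7.74 and 7.74) and Pdgfrb (6.61 against 7.22 and 7.38). Between arrays of the same number, AFT024 minus BFC012 was 1.03, 0.11 and 0.03 for Pdgfra, 0.90, 0.02 and 0.33 for Pdgfrb, and -1.84, -0.15 and -0.04 for Nt5e. The sign of both receptors without 1 library of a pair is therefore not a stable value. Over all genes, the number past the threshold was 1459, and 2241 without BFC012 replicate 1, but 749 to 791 without AFT024 replicate 2 or 3 or BFC012 replicate 2 or 3.

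**Figure D4:**
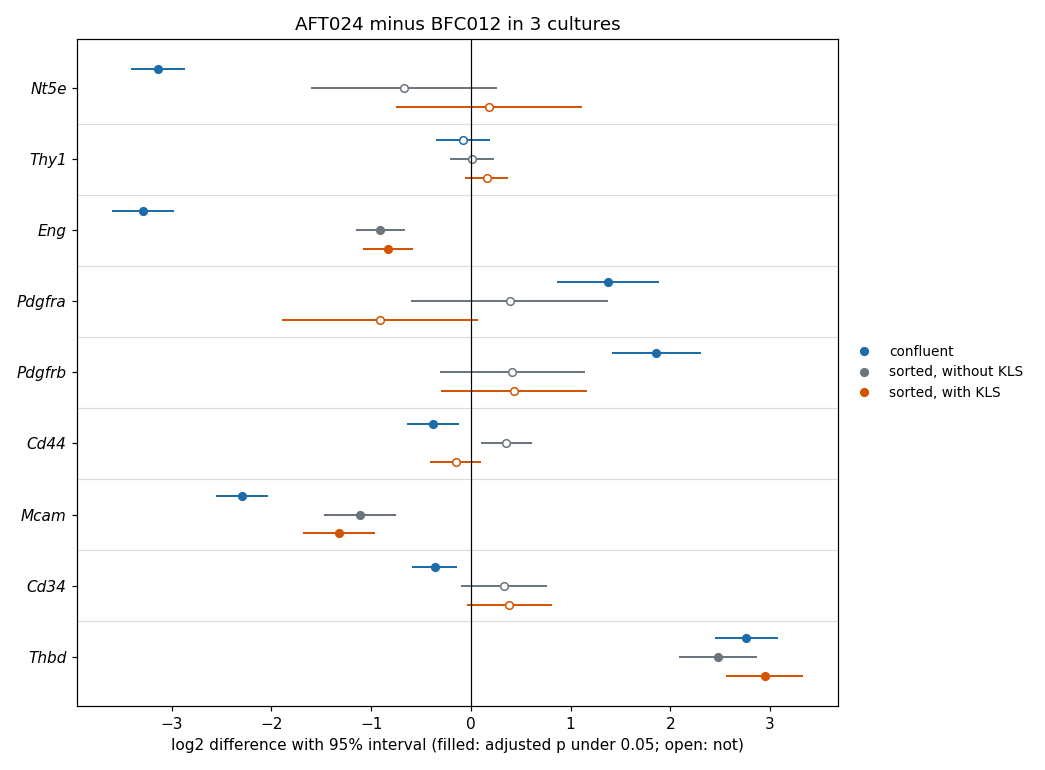
AFT024 minus BFC012 in log2 signal with 95% intervals, in confluent cultures, in sorted stroma grown alone and in sorted stroma grown with KLS cells; filled points have an adjusted p under 0.05. Thbd lies between 2.47 and 2.94 in the 3 cultures and Eng and Mcam lie below 0 in each, while Nt5e runs from -3.14 at confluency to 0.18 with KLS cells.

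The presence of KLS cells gave no member past the threshold in either line. With limma, 0 of 9 passed in AFT024, where 0.351% of genes did, and 0 of 9 in BFC012, where 0.883% did. These shares rest on 70 and 176 genes. Without 1 array the AFT024 count was 22 to 149, the lowest without AFT024+KLS replicate 2 and the highest without AFT024+KLS replicate 1, and it was 29 and 24 without AFT024-KLS replicate 2 or 3. The BFC012 count was 373 without BFC012-KLS replicate 1 and 70 to 85 without any other 1 of the 6 arrays. At an unadjusted p under 0.05 there were 3 members in AFT024 (Cd44, Cd34 and Thbd) and 2 in BFC012 (Pdgfra and Cd34). The difference between the lines' responses passed for 0 of 9 members, against 0.0401% of genes, with Cd44 alone at an unadjusted p under 0.05.

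For Cd34, mean levels were lower with KLS cells in both lines, as they were by smaller amounts for Mcam (-0.30 and -0.09) and Eng (-0.05 and -0.12), whose arrays overlapped. AFT024 read 7.69, 8.14 and 8.12 alone and 7.30, 7.54 and 7.14 with KLS cells, and BFC012 read 7.92, 7.56 and 7.47 alone and 6.64, 6.88 and 7.32 with them. The Cd34 arrays did not overlap in either line, and the differences were -0.65 and -0.71 (adjusted p = 0.227 and 0.167). A test of the mean over both lines, chosen after these values were seen, gave -0.68 (standard error 0.14, adjusted p = 0.0369), 1 of 9 members against 1.58% of genes. That call rests on the full set of arrays: it was kept in 3 of the 12 fits that left out 1 array (without AFT024-KLS replicate 1, BFC012-KLS replicate 1 or BFC012+KLS replicate 3) and lost in the other 9, with adjusted p from 0.0250 to 0.100.

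Thbd was 0.61 higher with KLS cells in AFT024 (95% interval 0.22 to 1.00, adjusted p = 0.219) and 0.14 higher in BFC012 (-0.25 to 0.53). Cd44 differed by -0.46 in AFT024 (-0.71 to -0.20, adjusted p = 0.154) and 0.05 higher in BFC012 (-0.21 to 0.31). Pdgfra was 1.46 higher in BFC012 with KLS cells (adjusted p = 0.226), and 0.85 higher without replicate 1 of BFC012 grown alone (adjusted p = 0.204). Beside these values stand the hematopoietic markers: the macrophage gene Cd68 averaged 7.01 alone and 8.11 with KLS cells in AFT024 (adjusted p = 0.233) and 6.56 and 6.92 in BFC012. None of 20 measured hematopoietic genes passed with KLS cells in either line, and Ptprc averaged 4.28 and 4.38 in AFT024 and 4.31 and 4.35 in BFC012, under the first quartile of 4.63. The summed signal of those 20 genes, as log2, was 9.15 to 9.34 alone and 9.39 to 9.86 with KLS cells in AFT024, and 9.20 to 9.30 and 9.22 to 9.43 in BFC012. The part of residual hematopoietic cells in these differences was not tested.

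**Figure D5:**
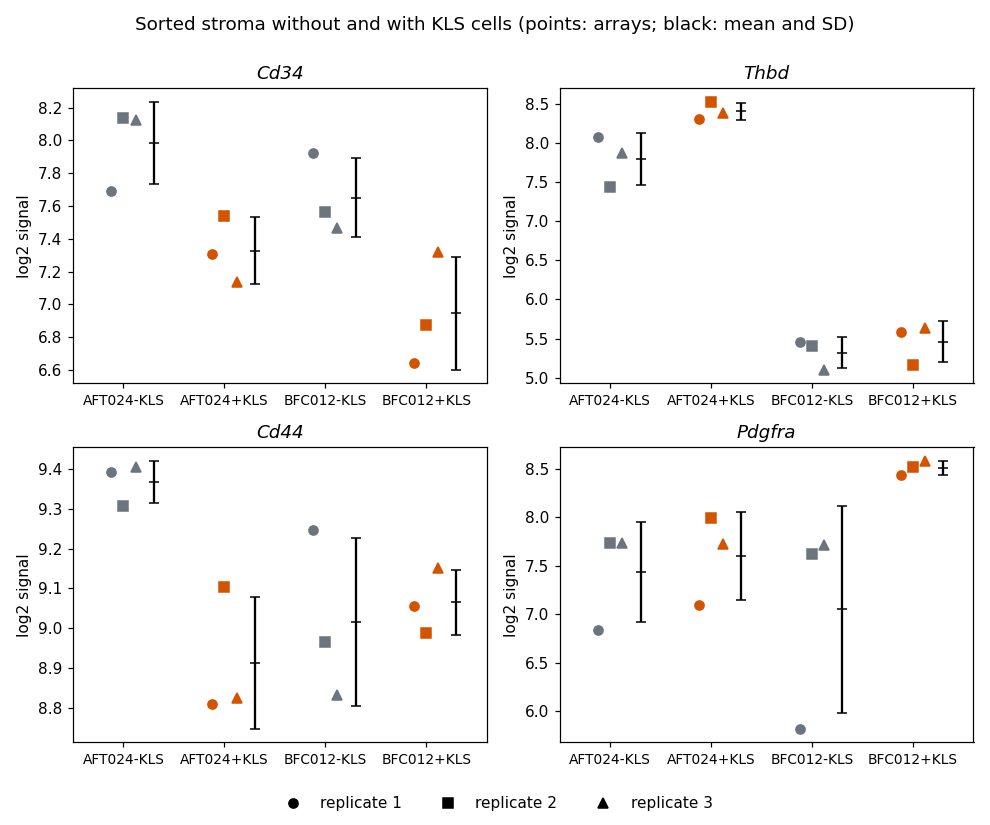
Log2 signal of Cd34, Thbd, Cd44 and Pdgfra in sorted stroma, grey without and orange with KLS cells; symbols give the replicate number, and black marks the mean and SD of 3 arrays. All 3 arrays with KLS cells lie below all 3 without for Cd34 in both lines, and replicate 1 of BFC012 grown alone lies apart for Pdgfra at 5.81. The vertical axes differ between panels and do not start at 0.

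The partners of each antigen were counted in the same pairs, and each count stands beside the share of all genes past the threshold in its pair: 8.56% in the AGM pair, 28.5% for AFT024 and BFC012, 15.5% in the BM pair, 27.6% for 2012 and AFT011 and 34.4% for OP9 and BFC. A count near that share is no result about the list. Among 22 measured receptors, ligands and effectors of the TGF-beta and BMP pathway in which Eng acts, 4 were higher and 3 lower in BMC9 than in BMC10, among them the ligands Tgfb2 (1.69) and Tgfb3 (1.03). In AFT024 against BFC012 2 were higher and 4 lower, about the share of all genes, the largest being the ligand Tgfb1 at 0.66. Between 2012 and AFT011, where Eng did not differ past the threshold, 7 were higher and 5 lower, led by the co-receptor Tgfbr3 (1.91).

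Among the 14 PDGF ligands and partners, 5 were higher and 2 lower in AFT024 than in BFC012, with the ligand Pdgfa at 1.46 and the protease urokinase, Plau, at 2.42. In sorted stroma Plau stood at 2.39 alone and 2.06 with KLS cells (adjusted p = 7.59e-05 and 0.000117). Between 2012 and AFT011 4 were higher and 5 lower, with the ligands Pdgfd at 1.23 and Pdgfc at -1.29. Between OP9 and BFC 5 were higher and 4 lower, with Pdgfd at -1.65. So the ligands differed in opposite directions in pairs whose receptors differed in 1 direction.

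Of 16 genes linked to the hyaluronan ligand of Cd44, 7 were lower and 2 higher in AFT024 than in BFC012, with the hyaluronan-binding protein Tnfaip6 at -3.08 and the proteoglycan Vcan at 1.39. Of 14 coagulation genes, 3 were higher and 2 lower in that pair, and 3 were higher and 6 lower in 2012 than in AFT011, including the protein C receptor Procr (-0.82). Of 8 adenosine genes, Entpd1, which makes the AMP that Nt5e uses, was 0.45 higher in UG26.1B6 than in UG26.3B5 and differed by -1.55 for BMC9 minus BMC10. Of 14 relatives of Ly6a and Thy1, 8 were higher and 0 lower in AFT024 than in BFC012, led by Ly6g (2.36). Some of these Ly6 genes are near-identical copies whose probes may not be told apart. Of the 3 measured relatives and ligands of Cd34, the related sialomucin Podxl was 0.80 higher in BMC9 than in BMC10 and stood at -0.77 for 2012 minus AFT011. In these 2 pairs Cd34 itself had the same directions. None of the 3 passed between AFT024 and BFC012, where Cd34 did. In the AGM pair, where Cd34 did not pass, 1 of the 3 was higher in UG26.1B6. Between OP9 and BFC 1 was higher and 2 lower.

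Of the 37 other stromal surface antigens measured, 10 were higher and 3 lower in AFT024 than in BFC012, with the proteoglycan Cspg4 at 3.75. In OP9 against BFC 19 were higher and 4 lower, with the peptidase Mme at 6.82. In the BM pair 9 were higher and 2 lower, in the AGM pair 3 and 3, and between 2012 and AFT011 8 were higher and 10 lower. Mme was also 3.15 higher in BMC9 than in BMC10 and 3.39 higher in 2012 than in AFT011. The aminopeptidase Anpep was 1.76 higher in BMC9 than in BMC10 and stood at -2.58 for 2012 minus AFT011.

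For each member, the genes whose line means followed it most closely were taken over the 13 confluent lines, after the mean of each normalization set was removed, from 4977 genes with a range of at least 1. Nt5e was followed by Tmem154 and Fras1 (Pearson r 0.97 and 0.93), Cd34 by Nmi and Anpep (0.98 and 0.95), and Pdgfrb by Mylip and Trim68 (0.97 and 0.95). Thy1 had Kctd15 and Mchr1 (0.97 and 0.96), Pdgfra Car13 and Ech1 (0.94 and 0.92), Cd44 Elovl4 and Tmod2 (0.93 and 0.92) and Mcam Pag1 and Shroom3 (0.92 and 0.91). The likeness was least for Eng, with Plppr2 and Hilpda (0.85 and 0.81), and for Thbd, with Errfi1 and Smox (0.84 and 0.83). No member was among the 2 genes most like another. These are the highest of many correlations over few lines, given without a test.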

How the data were processed

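The authors deposited 1 log2 signal for each probe set and array. RMA and Partek are named for this in the submitters' processing notes, with versions not given in the sources used here. RNA was extracted with Trizol and 100 ng was labelled, per the labels' protocols. Array quantiles agreed within 4 sets (largest gap 0.173) and differed between them (at least 0.412), so every contrast lies within a set. No 2 arrays were identical. Probe sets with 1 symbol were used (21789 of 35556; 1621 had several and 12146 none), and for 999 genes with several the one with the highest mean was taken, which left 19938 genes without a filter on low signal. No detection call was used, so a level near the first quartile is not read as presence or absence. With 3 arrays a group, array number sets the precision.

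The 39 confluent arrays entered 1 limma fit and the 12 sorted arrays another (limma version 3.58.1, R version 4.3.3, data.table version 1.17.8, statmod version 1.5.0). Tests were two-sided, and Benjamini-Hochberg adjustment ran over all genes. Each fit pools the spread of its arrays. Plots and sequences were handled in Python 3.11.15 with matplotlib 3.10.9, pandas 2.3.3 and numpy 2.4.6. Tested on simulated data with 200 changed genes of 19938, differences of 1 were recovered for 96 to 100% of genes in the confluent pairs and 80 to 87% in the sorted contrasts of 2 groups, but 65% for the difference between the lines' responses to KLS cells.

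The members and lists were chosen with earlier results of these data known. The named genes are all members, up to 4 genes of each other list per contrast with the largest differences past the threshold, and the 2 genes most like each member; Pecam1, Cdh5, Ptprc, Cd68, Prrx1, Wt1 and any other gene named were chosen after their values were seen. Replicate numbers were taken to pair the arrays where each same-number correlation of deviations exceeded 0.1: the AGM pair (0.327 to 0.535), the BM pair (0.116 to 0.435) and sorted AFT024 with BFC012 grown alone (0.466 to 0.671). The highest correlation between unlike numbers was 0.103, 0.194 and 0.501 in these pairs. Only in the AGM pair did each same-number value exceed it. Alternatives changed the arrays fitted, the block, the scaling, the probe sets, the filter and the variance model, and left out each array in turn.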

Additional observations from a re-analysis of the deposited data

Results flagged for a closer look

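The differences of differences that passed the threshold are values where the same contrast, the supportive minus the less- or non-supportive line, differed between tissues of origin. For the FL pair minus the BM pair they were Eng -7.75, Nt5e -3.22, Thbd 2.56, Mcam -1.95, Cd34 -1.10 and Pdgfrb 0.87. For the AGM pair minus the FL pair they were Thbd -5.61, Nt5e 3.91, Eng 2.94, Mcam 2.94, Pdgfrb -1.93 and Pdgfra -1.40. For the AGM pair minus the BM pair they were Eng -4.81, Thbd -3.04, Pdgfra -1.34, Pdgfrb -1.05, Cd34 -1.01, Mcam 0.99 and Nt5e 0.69. With only the arrays of that set in the fit, Pdgfra lost its call in both comparisons that gave one, and Pdgfrb lost it against the BM pair from either side (adjusted p = 0.0589 to 0.187). Pdgfrb for the FL minus the BM pair also lost it without AFT024 replicate 1, BFC012 replicate 2, BMC9 replicate 2 or 3, or BMC10 replicate 1 or 2. Pdgfrb for the AGM minus the BM pair lost it without UG26.1B6 replicate 1, UG26.3B5 replicate 2, BMC9 replicate 1 or BMC10 replicate 3. The 3 sets of values share pairs and are not independent. Each pair is 1 clone against another, so tissue and clone cannot be told apart.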

How the results depend on the processing

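Across the alternatives, 949 of 990 member values outside the single-array removals kept their direction and their side of the threshold, and 892 of 918 with 1 array removed; 0 reversed a called direction. With only the arrays of the 2 groups compared, 2 of 9 members passed between BMC9 and BMC10 in place of 5 (Pdgfra, Pdgfrb and Cd44 were lost), and 5 of 9 for AFT024 minus BFC012 with KLS cells in place of 3. With only the arrays of 1 normalization set, 23 of 36 neighbours passed in the 14F1-1, 2012, AFT011 and AM lines in place of 14. Leaving out replicates gave 10 to 17 of 45 neighbours in the other large set. For the mean effect of KLS cells, leaving out 1 array gave 0 to 1 members, and the replicate block gave 0 (Cd34, adjusted p = 0.0565). With the replicate block and only the arrays compared, the paired fits gave 4 members in the AGM pair, 4 in the BM pair and 3 in sorted stroma grown alone. Where the replicate numbers paired the arrays it changed no other call of these pairs than Eng and Cd44 as given. In pairs whose numbers were not shown to pair, the block gave 7 for AFT024 minus BFC012, 4 for 2012 minus AFT011, 8 for OP9 minus BFC and 4 for AFT024 minus BFC012 with KLS cells. Counts over all genes also moved: with only the arrays compared, 748 against 1707 in the AGM pair, 1296 against 3082 in the BM pair, 884 against 1459 in sorted stroma grown alone (3152 with the block) and 11 against 70 with KLS cells in AFT024 (0 with the block). In BFC012 the block gave 58 against 176 with KLS cells. With only 1 normalization set the AGM and BM pairs had 828 and 1900 genes. The difference of the AGM and BM pairs had 1496, 1435 and 1540 genes against 2521 with the set alone, the arrays compared and the block. The difference of responses to KLS cells had 0 to 46 genes with 1 array removed against 8, and 5 with a variance trend. Without UG26.1B6 replicate 2 the AGM pair had 1122 genes, and AFT024 minus BFC012 with KLS cells had 1381 to 1542 against 2314 without AFT024+KLS replicate 2 or 3 or BFC012+KLS replicate 1 or 3. A fit of fewer arrays has fewer residual degrees of freedom and also its own estimate of the spread. The spread differed between the pooled sets. The median SD of Pdgfra was 0.506 in the UG26, AFT024, BFC012 and BMC lines and 0.054 in the other large set. For Pdgfrb it was 0.344 and 0.034. What moved the counts was not tested.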
